A study of Mus musculus with 61 samples.

Results

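Neutrophil granule and maturation genes are the genes whose products fill the granules of neutrophils or appear on and in these cells as they mature. The set was given as 36 symbols, of which 34 were among the 19418 genes tested in spleens, and a member was taken as the row of the count files that carries its symbol. Of the 36 members, 35 had a row, and Ly6g, the surface protein that defines mouse neutrophils in flow cytometry, was not analysed here for want of a row. The members were divided by role into 5 genes of primary granules and promyelocytes, 12 of specific granules and myelocytes, 6 cytosolic S100 and stefin genes and 13 genes of mature neutrophils.

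Neutrophils arise from progenitors through the promyelocyte, the myelocyte and later stages with segmented nuclei. Primary, or azurophil, granules with myeloperoxidase and the serine proteases are made in promyelocytes, specific granules with lactoferrin are made in myelocytes under the transcription factor C/EBP epsilon, and gelatinase, chemokine receptors and the receptor for G-CSF mark late cells. The mouse spleen keeps a small amount of granulopoiesis in adult life, beside a reserve of mature neutrophils, and STAT5 proteins carry signals of several cytokines that act on myeloid cells.

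The study compared STAT5B with phenylalanine (Y665F) or histidine (Y665H) in place of a tyrosine of its SH2 domain, in mice and in transduced T cells, by sequencing total RNA of 61 libraries. The labels give all mice as C57BL/6 and aged 2 months, and the methods of the study name C57BL/6N for the edited mice. The spleens came from 4 WT mice, 5 with the Y665H allele, made by base editing, and 7 with the Y665F allele, made by Cas9 with an oligonucleotide, and whether the mice carried 1 or 2 mutant alleles is not stated for these libraries. T cells isolated from spleens of the same 3 genotypes gave 4 libraries each from cells kept in interleukins 2 and 7 for 24 h, and Y665F T cells without these interleukins, for which the labels give no time in culture, gave 3. CD4+ T cells gave the other 30 libraries, 3 for each of 5 retroviral vectors (empty, STAT5B, STAT5B N642H, STAT5B Y665F and STAT5B Y665H) in WT cells and in cells whose Stat5a and Stat5b had been deleted by Cre under the Cd4 promoter. These cells were sorted as naive cells from pooled lymph nodes and spleens, activated and transduced. They were cultured for 48 h with interleukin 2 and sorted again for the vector's GFP. Their genotype label names floxed Stat5a and Stat5b for the cells titled WT too, so that their background was read from the titles. The labels place the extraction in mammary tissue, whereas the methods of the study name frozen spleen and T cells. The spleen libraries are titled splenocytes and carry the tissue label spleen, so that whether whole tissue or a cell suspension was used is uncertain, and they are called spleens here.

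Reads counted on genes numbered 24.2 to 43.3 M per spleen library and 2.02 to 27.4 M per T cell library. In CD4+ cells they numbered 19.7 to 48.8 M in the null background and 18.8 to 49.9 M in the WT background. Levels are given as CPM after TMM scaling, and a member was read in an experiment where it had at least 10 reads over its libraries. That left 34 members in spleens (Stfa2 had fewer), 34 in splenic T cells (Cebpe had fewer), 32 in null CD4+ cells (Stfa1, Stfa2l1 and Retnlg had fewer) and 31 in WT CD4+ cells (S100a8, Ctsg, Elane and Prtn3 had fewer). The spleen libraries carried B cell markers, with a summed level of 3200 to 4770 CPM over 9 genes, and T cell markers at 416 to 1080 CPM over 9 genes, as the tissue label has it. In the T cell libraries the T cell markers summed to 1090 to 3520 CPM and the B cell markers to 18.2 to 763 CPM. RNA of mixed cells does not tell a larger number of cells from more RNA per cell, and that holds for every difference given here.

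Y665H replicate 1 had the lowest summed level of the members among the Y665H spleens. The summed level of the 34 members was 455, 318, 473 and 361 CPM in the WT spleens. Y665H replicates 1 to 5 held 235, 1490, 1980, 575 and 1890 CPM, and the Y665F spleens ranged from 558 over a median of 848 to 1250 CPM. Y665H replicate 1 thus lay under every WT spleen, replicate 4 a little above them, and replicates 2, 3 and 5 above all 7 Y665F spleens. No WT spleen reached the Y665F range. Across all genes, Y665H replicate 1 also had the lowest correlation with the rest of its group among the 16 spleens, 0.988. WT replicate 1 was next, at 0.99. Whether this library carries the genotype of its label could not be tested with counts per gene, and if it did not, every Y665H mean and call would change. Calls in the spleens are therefore given with and without it. The members' own levels helped to single this spleen out, so that counts of calls without it are no independent test. In the Y665F group replicates 1, 2 and 3 held the highest sums, and the labels name no batch that would set them apart.

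**Figure D1:**
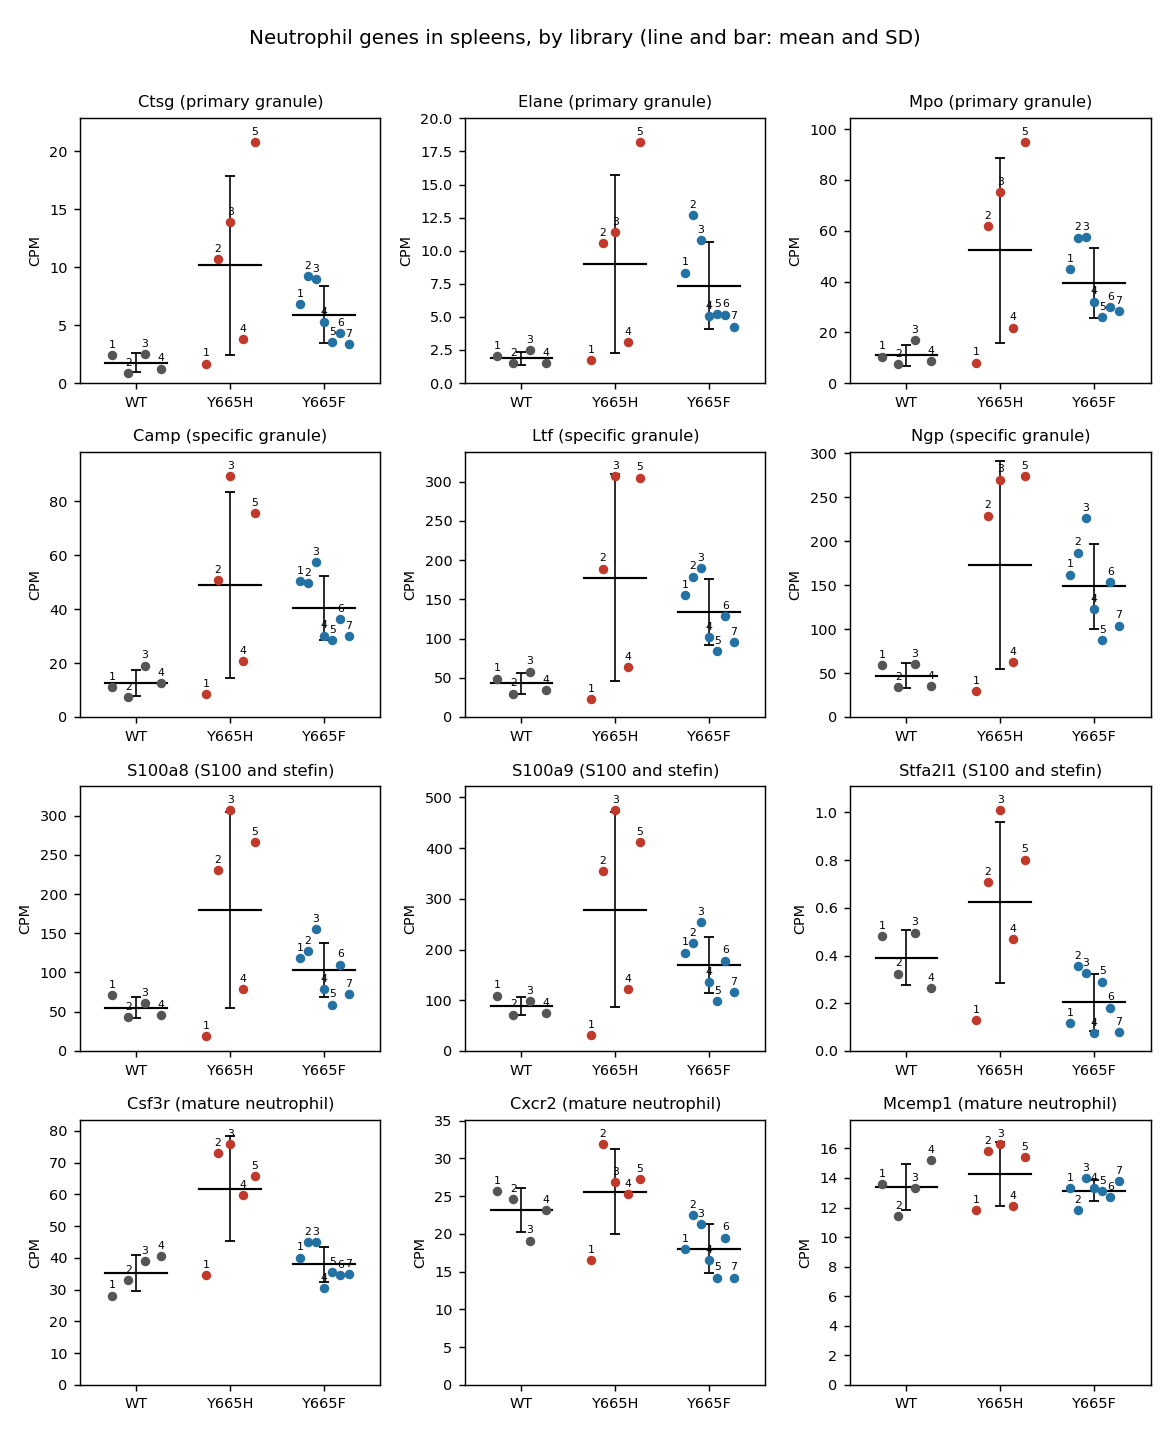
CPM of the 12 members described library by library, with a point for each spleen library and its replicate number, and lines and bars for the mean and SD of each genotype. Y665H replicate 1 lies among or under the 4 WT libraries in all 12 panels, and for the granule genes the 7 Y665F libraries lie above the WT libraries.

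The primary granule genes came first in the comparison of library with library. Mpo encodes myeloperoxidase, which makes hypochlorous acid in primary granules, and lies at chr11:87793581-87804413 of GRCm38. Its level was 10.4, 7.49, 17 and 8.71 CPM in the WT spleens, 8.05, 61.7, 75.3, 21.8 and 94.9 CPM in Y665H replicates 1 to 5, and 26.1, 32.1 and 57.5 CPM as the lowest, median and highest Y665F spleen. Every Y665F spleen lay above every WT spleen. Y665H replicate 1 lay within the WT range, replicate 4 between the WT and the Y665F range, and the other 3 above all Y665F spleens.

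Elane encodes neutrophil elastase, a serine protease of the same granules. It stood at 2.04, 1.48, 2.48 and 1.49 CPM in WT, at 1.76, 10.6, 11.4, 3.1 and 18.2 CPM in Y665H, and at a lowest of 4.27, a median of 5.19 and a highest of 12.7 CPM in Y665F. The order was that of Mpo in WT and Y665F, which did not overlap, while Y665H replicates 2 and 3 fell inside the Y665F range and replicate 5 above it. Ctsg, for the protease cathepsin G, measured 2.44, 0.864, 2.51 and 1.25 CPM in WT, 1.67, 10.7, 13.9, 3.78 and 20.8 CPM in Y665H, and 3.33, 5.29 and 9.24 CPM as lowest, median and highest in Y665F. Again the 7 Y665F spleens and 4 of the 5 Y665H spleens lay above all WT spleens, and Y665H replicate 1 did not. Prtn3, for proteinase 3, ranged from 0.576 to 1.39 CPM in WT, from 1.32 to 13.5 CPM in Y665H and from 2.4 to 7.44 CPM in Y665F. Ms4a3, a membrane protein of granulocyte and monocyte progenitors, ranged from 0.9 to 2.44, from 0.93 to 10.4 and from 2.99 to 6.63 CPM in the same order of genotypes.

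Against WT, the question was whether the mutant spleens held more of these transcripts. A gene is called here where the quasi-likelihood F test of edgeR gave an adjusted p under 0.05 (Benjamini-Hochberg, over all genes tested in spleens) and the log2 difference passed 1 in either direction. The primary genes were called in Y665H for 5 of 5 and in Y665F for 4 of 5, where 3.93% of all genes were called higher in Y665H and 0.572% in Y665F. Both comparisons use the same 4 WT spleens, so they are not independent of each other. Counts of spleens above all WT are a description, and the share of all genes that separate likewise is not given. Mean CPM and SD of Mpo were 10.9 ± 4.24 for the 4 WT spleens, 52.3 ± 36.5 for the 5 Y665H spleens and 39.4 ± 13.7 for the 7 Y665F spleens. In edgeR its log2 difference from WT was 2.26 (SE 0.52, adjusted p = 0.006, 4 of 5 spleens above all WT) in Y665H and 1.85 (SE 0.49, adjusted p = 0.0218, 7 of 7) in Y665F. For Elane the edgeR values were 2.26 (SE 0.55, adjusted p = 0.00762, 4 of 5) and 1.97 (SE 0.52, adjusted p = 0.0217, 7 of 7), and for Ctsg 2.52 (SE 0.58, adjusted p = 0.00616, 4 of 5) and 1.73 (SE 0.56, adjusted p = 0.05, 7 of 7). Ctsg in Y665F thus sat at the threshold. Prtn3 had the largest log2 difference of the list in both genotypes, 2.80 in Y665H and 2.16 in Y665F. Ms4a3 differed by 1.83 in Y665H and, without a call, by 1.32 in Y665F (edgeR adjusted p = 0.077, 7 of 7 spleens above all WT).

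The specific granule genes, made at the myelocyte stage, spanned a wide range of levels. Per kilobase of exon, the WT spleens averaged 38.5 CPM for Ngp, 16.6 for Camp and 12.4 for Ltf, against 3.18 for Mpo, 1.9 for Elane and 1.71 for Ctsg, while Fcnb (1.48), Itgb2l (0.475), Olfm4 (0.211) and Cebpe (0.149) lay below these 3 primary genes. Ngp encodes neutrophilic granule protein, a cathelicidin-related protein. Its level was 58.9, 33.6, 60.1 and 35.5 CPM in WT, 29.2, 229, 270, 62.6 and 274 CPM in Y665H, and 87.7, 153 and 226 CPM as lowest, median and highest in Y665F. All 7 Y665F spleens exceeded every WT spleen, whereas Y665H replicate 1 lay below all WT spleens, replicate 4 just above them and the other 3 above all Y665F spleens.

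Ltf, for the iron-binding lactoferrin, stood at 49, 29.7, 57.8 and 34.6 CPM in WT, at 23, 189, 307, 64 and 305 CPM in Y665H, and at a lowest of 84.3, a median of 129 and a highest of 190 CPM in Y665F. Camp, for the antimicrobial cathelicidin peptide, stood at 11.1, 7.35, 19.1 and 12.7 CPM in WT, at 8.6, 50.9, 89.4, 20.6 and 75.8 CPM in Y665H, and at 28.6, 36.2 and 57.4 CPM as lowest, median and highest in Y665F. For both genes WT and Y665F did not overlap, Y665H replicates 3 and 5 were the highest of all 16 spleens, and replicate 2 fell inside the Y665F range. Ltf, Ngp and Camp lie on chromosome 9, with 596 kb between Ngp and Ltf and 570 kb between Camp and Ngp, 20 and 8 other genes in between.

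Of the 12 specific granule genes, edgeR called 9 higher in Y665H and 4 in Y665F against WT. Ngp differed by 1.88 (SE 0.50, adjusted p = 0.0132, 4 of 5 spleens above all WT) in Y665H and by 1.66 (SE 0.47, adjusted p = 0.0304, 7 of 7) in Y665F, as log2 values from edgeR. Ltf differed by 2.05 (SE 0.53, adjusted p = 0.0118, 4 of 5) and 1.64 (SE 0.50, adjusted p = 0.0418, 7 of 7), and Camp by 1.96 (SE 0.49, adjusted p = 0.00985, 4 of 5) and 1.68 (SE 0.47, adjusted p = 0.0279, 7 of 7). Fcnb, for the lectin ficolin B, was the fourth gene called in Y665F, at 1.80, and was called at 1.82 in Y665H. Lcn2, whose product binds bacterial siderophores, differed by 2.09 in Y665H and by 1.64, uncalled, in Y665F. Hp (haptoglobin), Cd177 (a surface glycoprotein), Itgb2l (an integrin beta chain) and Mmp8 (neutrophil collagenase) were called in Y665H, at 1.81, 1.88, 2.02 and 1.45. In Y665F they were uncalled, at 1, 1.48, 1.66 and 1 (edgeR adjusted p = 0.0923, 0.0508, 0.057 and 0.17). All 7 Y665F spleens lay above all WT for Hp, Cd177 and Itgb2l, and 4 of 7 did for Mmp8. No gene of these was called between Y665F and Y665H. Cebpe, Olfm4 and Pglyrp1 were called in neither. Cebpe, the factor that directs specific granule formation, differed by 2.04 in Y665H and by 2.02 in Y665F. All 7 Y665F spleens lay above all WT spleens for it. Its reads numbered only 1, 2, 10 and 11 in the WT spleens and 9 to 35 in Y665F. In Y665H replicates 1 to 5 they numbered 2, 36, 59, 3 and 35. Olfm4, a granule glycoprotein, reached at most 2.53 CPM and differed by 1.17 in Y665H (edgeR adjusted p = 0.0501) and by 1.05 in Y665F. Pglyrp1, which binds peptidoglycan, differed by 0.50 in both comparisons.

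Promoter letters were searched for what the members share in sequence beyond their roles. RefSeq's table for GRCm38.p6 held 32 of the 36 members, and the 250 bases before each start were searched on both strands for TTGCNNAA, a form of the C/EBP motif, and for TTCNNNGAA, the STAT motif. TTGCNNAA was found in 9.56% of 32851 windows of that length and in 10 of the 32 members. Of the specific granule genes 5 of 10 in the table had it, of the primary genes 0 of 5, of the mature genes 3 of 11 (Ly6g, Retnlg and Clec4e) and of the S100 and stefin genes 2 of 6 (S100a9 and Stfa1). TTCNNNGAA was found in 7.02% of windows and in 2 members, Ctsg and Trem1. The windows of the 5 specific granule genes and of Ctsg are printed 5′ to 3′ on the gene's strand, with the matches in capitals. They are chr9:111019042-111019291 (plus strand) for Ltf, chr9:110419558-110419807 (plus) for Ngp, chr2:28084879-28085128 (minus) for Fcnb, chr9:7558179-7558428 (plus) for Mmp8, chr2:32387740-32387989 (minus) for Lcn2 and chr14:56102575-56102824 (minus) for Ctsg. A match is a description of letters, and binding was not measured here.
Ltf: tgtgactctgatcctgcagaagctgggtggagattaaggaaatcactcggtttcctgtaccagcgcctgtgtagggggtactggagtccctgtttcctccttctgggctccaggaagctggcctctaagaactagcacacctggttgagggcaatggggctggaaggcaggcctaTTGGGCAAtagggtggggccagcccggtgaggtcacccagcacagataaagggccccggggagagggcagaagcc
Ngp: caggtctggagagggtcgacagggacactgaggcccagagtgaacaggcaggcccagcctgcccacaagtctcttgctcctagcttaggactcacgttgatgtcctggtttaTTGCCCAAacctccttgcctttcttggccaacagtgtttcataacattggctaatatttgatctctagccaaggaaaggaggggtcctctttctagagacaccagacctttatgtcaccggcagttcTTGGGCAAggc
Fcnb: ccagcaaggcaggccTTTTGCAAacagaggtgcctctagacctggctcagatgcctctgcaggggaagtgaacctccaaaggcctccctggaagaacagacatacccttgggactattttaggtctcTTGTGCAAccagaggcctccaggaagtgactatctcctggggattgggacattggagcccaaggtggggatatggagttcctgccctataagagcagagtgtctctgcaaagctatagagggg
Mmp8: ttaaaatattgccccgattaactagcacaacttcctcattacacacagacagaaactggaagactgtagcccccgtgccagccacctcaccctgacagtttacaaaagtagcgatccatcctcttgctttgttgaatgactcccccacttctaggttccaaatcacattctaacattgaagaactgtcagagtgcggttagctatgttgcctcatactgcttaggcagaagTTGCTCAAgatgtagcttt
Lcn2: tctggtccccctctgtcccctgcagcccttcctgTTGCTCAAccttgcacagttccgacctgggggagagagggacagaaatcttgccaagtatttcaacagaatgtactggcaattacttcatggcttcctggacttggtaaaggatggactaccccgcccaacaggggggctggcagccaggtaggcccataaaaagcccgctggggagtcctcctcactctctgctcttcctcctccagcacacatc
Ctsg: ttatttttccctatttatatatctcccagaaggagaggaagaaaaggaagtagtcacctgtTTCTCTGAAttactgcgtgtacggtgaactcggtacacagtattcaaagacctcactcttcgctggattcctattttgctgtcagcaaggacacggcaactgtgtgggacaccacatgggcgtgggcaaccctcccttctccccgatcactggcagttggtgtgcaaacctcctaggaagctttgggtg

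S100a8 and S100a9 encode the 2 chains of calprotectin, the most abundant protein of the neutrophil cytosol, and lie 22.6 kb apart on chromosome 3. S100a9 had the highest CPM of all members in every spleen but Y665H replicate 1, where Csf3r did. It stood at 109, 71.6, 98.7 and 74.4 CPM in WT, at 30.9, 354, 475, 122 and 412 CPM in Y665H, and at 98.3, 178 and 254 CPM as lowest, median and highest in Y665F. S100a8 stood at 70.8, 43.2, 60.9 and 45.4 CPM in WT, at 18.5, 230, 307, 78.9 and 266 CPM in Y665H, and at 58.9, 110 and 155 CPM as lowest, median and highest in Y665F. For both genes Y665H replicate 1 was the lowest of all spleens, the other 4 Y665H spleens lay above all WT spleens, and 6 of 7 Y665F spleens did. Y665F replicate 5 fell inside the WT range.

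From edgeR, S100a8 differed from WT by 1.71 (SE 0.53, adjusted p = 0.0288, 4 of 5 spleens above all WT) in Y665H and S100a9 by 1.66 (SE 0.51, adjusted p = 0.0302, 4 of 5). In Y665F the log2 differences were 0.90 for S100a8 (edgeR adjusted p = 0.235, 6 of 7) and 0.94 for S100a9 (edgeR adjusted p = 0.206, 6 of 7), without a call. Of the 5 S100 and stefin genes tested, edgeR called 2 in Y665H and 0 in Y665F, where 1 had an unadjusted p under 0.05 and DESeq2 called 0. The stefins, cytosolic inhibitors of cysteine proteases, were near the limit of detection. Stfa1 had 0 to 3 reads and Stfa3 0 to 9 reads per spleen. Stfa2l1 measured 0.482, 0.324, 0.496 and 0.262 CPM in WT, 0.128, 0.708, 1.01, 0.468 and 0.802 CPM in Y665H, and 0.0755, 0.182 and 0.357 CPM as lowest, median and highest in Y665F. Those values rest on 2 to 32 reads per spleen. The lowest libraries were Y665F spleens and Y665H replicate 1, and 4 of 7 Y665F spleens lay under every WT spleen. Stfa2l1 shared 24.6% of its 50-base stretches with other loci, mainly Stfa2, and Stfa1 shared 22.5%, mainly with BC100530, and what this sharing does to their counts was not tested, so these values are uncertain.

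The mature neutrophil genes were read in the same way. Csf3r, the receptor for G-CSF, stood at 28.1, 33, 39.1 and 40.6 CPM in WT, at 34.7, 73.1, 75.9, 59.8 and 65.8 CPM in Y665H, and at 30.4, 35.6 and 45.1 CPM as lowest, median and highest in Y665F. WT and Y665F overlapped here, with 2 of 7 Y665F spleens above all WT, and Y665H replicates 2 to 5 lay above every other spleen. Cxcr2, the chemokine receptor that draws neutrophils out of the marrow, stood at 25.7, 24.6, 19.1 and 23.1 CPM in WT, at 16.5, 31.9, 26.9, 25.3 and 27.2 CPM in Y665H, and at 14.2, 18 and 22.5 CPM as lowest, median and highest in Y665F. Y665H replicates 2, 3 and 5 were above all WT spleens, and 4 of 7 Y665F spleens were below all of them. Mcemp1, a membrane protein of mast cells and neutrophils, measured 13.6, 11.4, 13.3 and 15.2 CPM in WT, 11.8, 15.8, 16.3, 12.1 and 15.4 CPM in Y665H, and 11.8, 13.3 and 14 CPM as lowest, median and highest in Y665F. Its 3 groups overlapped, and all Y665F spleens fell within the WT range.

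For Csf3r, mean CPM and SD were 35.2 ± 5.77 over the WT, 61.8 ± 16.4 over the Y665H and 38 ± 5.59 over the Y665F spleens. By edgeR its log2 difference from WT was 0.81 in Y665H (SE 0.18, adjusted p = 0.00536, 4 of 5 spleens above all WT), under the fold minimum, and 0.11 in Y665F. Cxcr2 differed by 0.15 (edgeR adjusted p = 0.59, 3 of 5) in Y665H and by −0.36 in Y665F, and Mcemp1 by 0.09 (edgeR adjusted p = 0.598, 3 of 5) and −0.03. Of the 12 mature genes tested, edgeR called 5 higher in Y665H. They were Trem3 and Trem1, activating receptors of myeloid cells that lie 0.853 kb apart, at 1.53 and 1.19, Padi4, which citrullinates histones, at 1.32, Hdc, which makes histamine, at 1.22, and Mmp9, the gelatinase, at 1.04. In Y665F edgeR called 0 of the 12, while 7 had an unadjusted p under 0.05 and DESeq2 called 0. Retnlg, a resistin-like secreted protein, had log2 differences of 1.27 and 1.01, and Ltb4r1, a receptor for leukotriene B4, of 0.93 and 0.81, in Y665H and Y665F. Clec4d and Clec4e, lectin receptors encoded 6.52 kb apart on chromosome 6, had 0.62 and 0.74 in Y665H and −0.33 and −0.22 in Y665F.

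**Figure D2:**
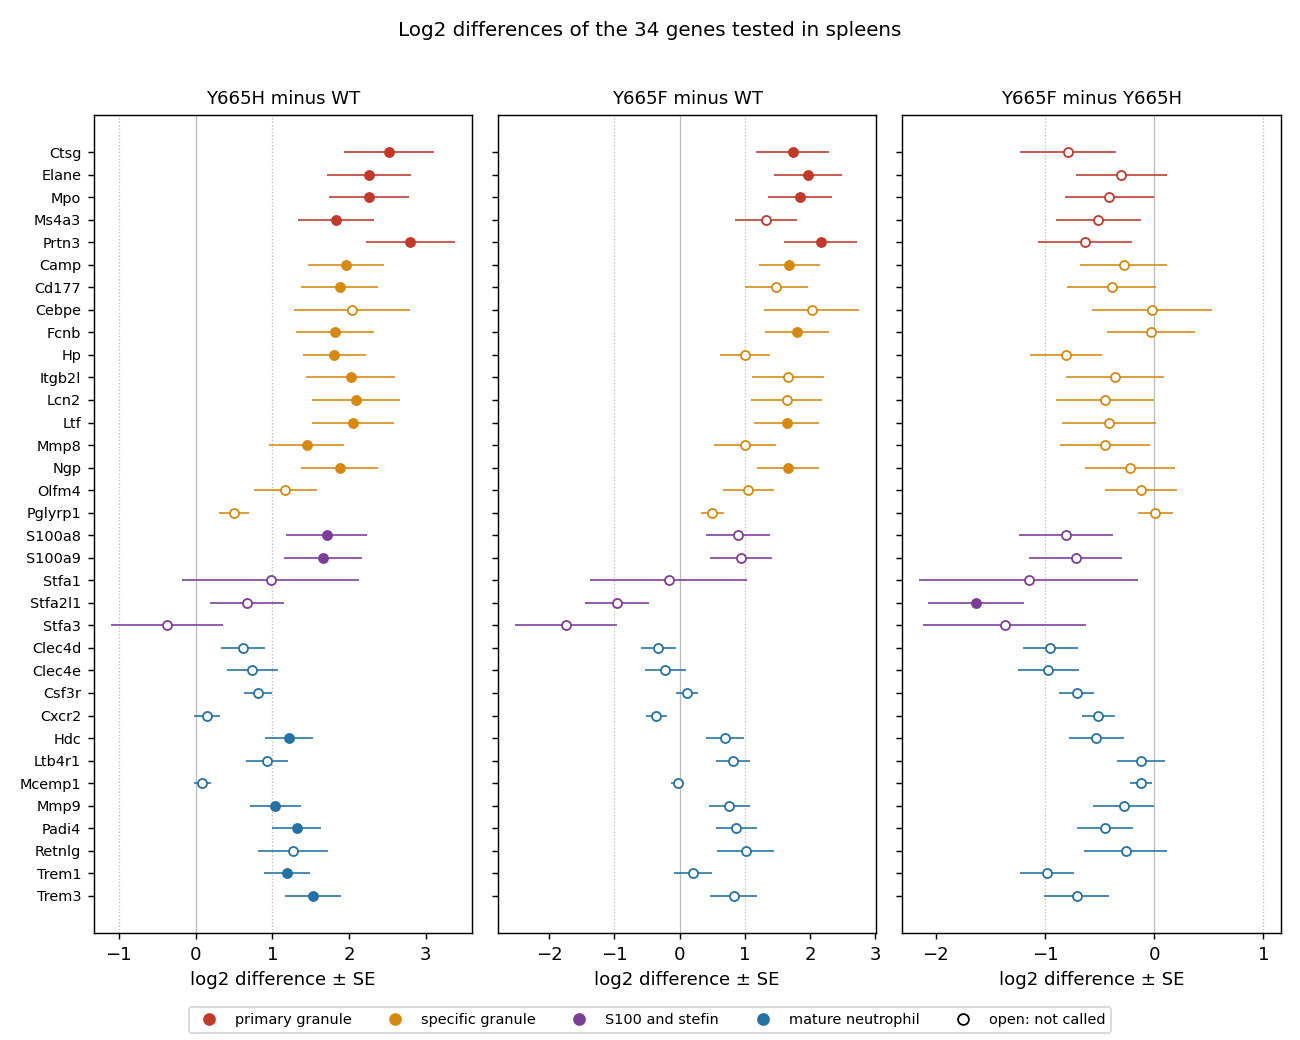
Log2 differences with SE from edgeR for the 34 members tested in spleens, by role, with filled points for called genes and dotted lines at the fold minimum of 1. Against WT, Prtn3 lies farthest to the right in both mutants, and between the mutants only Stfa2l1 is filled.

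Over all roles, edgeR called 21 of 34 members higher and 0 lower in Y665H against WT, beside 3.93% of all genes higher and 0.438% lower. The members' median log2 difference was 1.49, against 0 over all genes tested. By role, the medians were 2.26 for primary, 1.88 for specific, 0.98 for S100 and stefin and 0.98 for mature genes. Against WT, Y665F had 8 of 34 members called higher and 0 lower, beside 0.572% of all genes higher and 0.628% lower. Here the median was 0.97 over the members and 0 over all genes, and by role 1.85, 1.64, −0.17 and 0.45. DESeq2 called 24 members higher in Y665H and 14 in Y665F, and 0 lower in either, beside 782 and 127 higher of all 19418 genes. With only the groups compared in the fit, edgeR called 10 in Y665H, beside 672 higher of all 18728 genes, and 17 in Y665F, beside 134 of 18894, so that the order of the counts depends on the fit. That more members passed in Y665H than in Y665F does not show that the genotypes differ, which is the comparison given further on.

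Single libraries carried part of these calls. Without Y665H replicate 1, edgeR called 25 of 34 members in Y665H against WT, with a median of 1.78, beside 5.17% of all genes higher and 0.491% lower, and Mpo differed by 2.57, Ngp by 2.19, S100a9 by 1.98 and Csf3r by 1.00. Leaving that spleen out of the shared fit also moved Y665F against WT, from 8 to 17 members (primary 5 of 5, specific 11 of 12, mature 1 of 12, S100 and stefin 0 of 5), beside 0.75% of all genes higher and 0.693% lower, although the log2 differences hardly changed (Mpo 1.86, Ngp 1.67). In the other direction, without WT replicate 1 or without WT replicate 2 edgeR called 0 members in Y665F, and without WT replicate 4 it called 4, the genes that lost their call being Ctsg, Ltf, Camp and Ngp. The log2 difference of Mpo was then 1.83 without WT replicate 1 and 1.72 without WT replicate 2. Ctsg kept its call in Y665F only without WT replicate 3, and Ltf only without WT replicate 3 or Y665F replicate 4, among the 11 ways to leave out 1 spleen of these groups. Without WT replicate 3 it called 10, with Cd177 and Olfm4 added. In Y665H, leaving out WT replicate 2 gave 11 members, without Ms4a3, Ngp, Ltf, Lcn2, Fcnb, Cd177, Itgb2l, Mmp8, Mmp9, S100a8 and S100a9 but with Ltb4r1. Leaving out Y665H replicate 4 gave 25, the 4 added being Cebpe, Ltb4r1, Olfm4 and Retnlg, as without replicate 1. Mmp8 lost its call without any 1 WT spleen or without Y665H replicate 2, 3 or 5, and Mmp9 without WT replicate 1, 2 or 4 or Y665H replicate 2, 3 or 5. Itgb2l lost it without Y665H replicate 3 or 5, and Fcnb without Y665H replicate 5. The call of S100a9 in Y665H also ended without WT replicate 1 or 4 or Y665H replicate 2, 3 or 5, and that of S100a8 without WT replicate 4 or Y665H replicate 2, 3 or 5, at log2 differences from 1.38 to 1.81 for S100a9 and from 1.43 to 1.64 for S100a8.

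The primary genes were then set against the late genes within each library. For each spleen the mean of log2(CPM + 0.5) over the 12 mature genes tested was taken from that over the 5 primary genes. The zero of this difference has no meaning of its own, since the genes differ in length, and only spleens can be compared by it. It was −0.66, −1.29, −0.47 and −1.08 in WT, −0.70, 0.29, 0.52, −0.46 and 1.12 in Y665H, and 0.01, 0.40 and 0.76 as lowest, median and highest in Y665F. All 7 Y665F spleens lay above every WT spleen. In Y665H, replicates 2 to 5 did so, replicate 4 barely, and replicate 1 lay within the WT range. The means were −0.88 ± 0.37 (SD, n = 4), 0.15 ± 0.74 (SD, n = 5) and 0.38 ± 0.27 (SD, n = 7). Y665F exceeded WT by 1.26, Y665H exceeded WT by 1.03 and Y665F exceeded Y665H by 0.23. The pooled SD of 0.50 describes the spread of single spleens, in which the Y665H group weighs most. No test was run on these differences, since the members were chosen with results of these data known. With 1 spleen left out at a time, these differences ranged from 1.12 to 1.39, from 0.79 to 1.24 and from 0.01 to 0.47.

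The levels behind this difference were as follows. The summed level of the mature genes was 94.2, 95.1, 99.9 and 106 CPM in WT, 82.1, 195, 203, 138 and 179 CPM in Y665H, and 91.4, 106 and 138 CPM as lowest, median and highest in Y665F. In this sum, of which Csf3r is the most abundant gene over all spleens, Y665F overlapped WT, while Y665H replicates 2 to 5 were at or above the top of the Y665F range. The sum hides less abundant late genes. For Mmp9, Padi4, Hdc and Ltb4r1 7 of 7 Y665F spleens lay above all WT spleens, and for Retnlg and Trem3 6 of 7 did, all uncalled. No share of all genes that separate likewise stands beside these counts, which are a description only. The mean of log2(CPM + 0.5) over the mature genes was above its highest WT value, 2.40, in 5 of 7 Y665F spleens. The summed level of the primary genes was 18.3, 11.3, 25.6 and 13.8 CPM in WT, 13.7, 97.4, 120, 34.1 and 158 CPM in Y665H, and 41.5, 49.5 and 92.2 CPM in Y665F, with Mpo the most abundant over all spleens. Here the 7 Y665F spleens stood clear of WT.

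**Figure D3:**
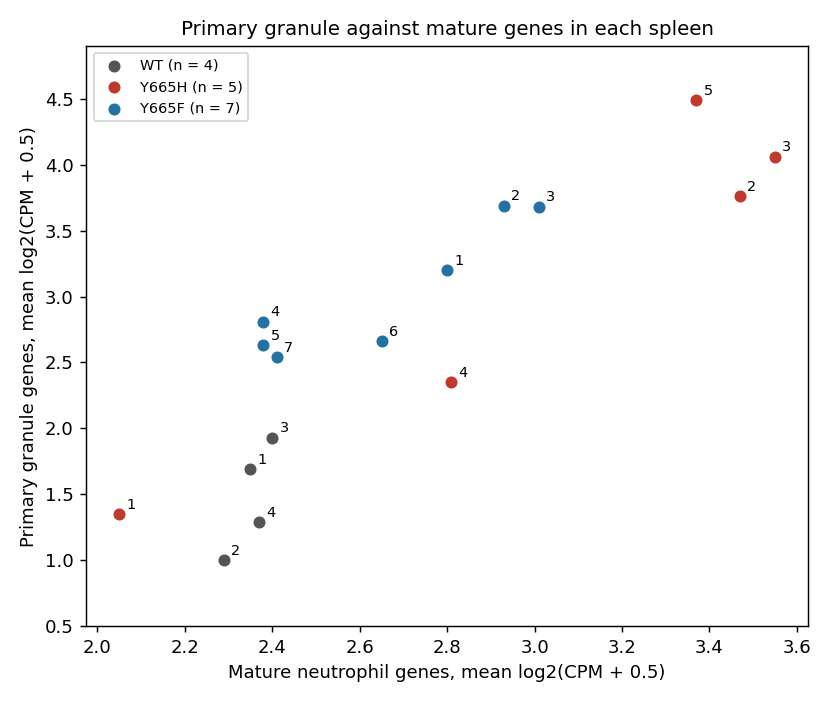
Mean log2(CPM + 0.5) of the 5 primary granule genes against that of the 12 mature neutrophil genes, with a point for each of the 16 spleens. Y665F replicates 4, 5 and 7 lie above the WT spleens at nearly the same mature level, and Y665H replicates 2, 3 and 5 are the highest on both axes.

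Y665F was compared directly with Y665H for whether the mutants differ from each other. All but 1 of the 34 log2 differences were below 0, the exception being Pglyrp1 at 0.01, and the spread of the Y665H group was wide. edgeR called 1 member lower and 0 higher, beside 4.01% of all genes lower and 1.27% higher. The median was −0.45 over the members and −0.01 over all genes, and by role −0.51 for primary, −0.32 for specific, −1.15 for S100 and stefin and −0.52 for mature genes. DESeq2 called 1 lower as well.

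The member called was Stfa2l1, at −1.63 (SE 0.44, edgeR adjusted p = 0.0106, 3 of 7 Y665F spleens below all Y665H), which rests on the low counts given before. In the primary genes edgeR called 0 of 5, with 0 at an unadjusted p under 0.05 and 0 by DESeq2. Mpo differed by −0.41, Elane by −0.30 and Ctsg by −0.79. In the specific genes edgeR called 0 of 12, with 1 at an unadjusted p under 0.05 and 0 by DESeq2, and Ngp differed by −0.22, Ltf by −0.41 and Camp by −0.28. Of the mature genes edgeR called 0 of 12, with 6 at an unadjusted p under 0.05 and 0 by DESeq2. Of these, 5 had an adjusted p under 0.05 from edgeR with a log2 difference short of 1. Csf3r was at −0.71 (SE 0.16, edgeR adjusted p = 0.00289, 2 of 7 below all Y665H), Trem1 at −0.98 (edgeR adjusted p = 0.0079, 1 of 7), Clec4d at −0.95 (edgeR adjusted p = 0.00872, 2 of 7), Clec4e at −0.97 (edgeR adjusted p = 0.0166, 2 of 7) and Cxcr2 at −0.51 (edgeR adjusted p = 0.0157, 2 of 7). S100a8 was at −0.81 and S100a9 at −0.72, both uncalled.

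Without Y665H replicate 1, edgeR called 8 members lower in Y665F, beside 5.23% of all genes lower and 1.55% higher, and the members' median was −0.74. Stfa2l1 was at −1.91, and the other 7 were Trem1 at −1.21, Clec4e at −1.19, Clec4d at −1.16, S100a8 at −1.12, Ctsg at −1.09, Hp at −1.06 and S100a9 at −1.03. For Stfa2l1, Clec4d, Clec4e, Trem1, Csf3r and Cxcr2 all 7 Y665F spleens then lay below all 4 Y665H spleens. The spleen left out was the lowest Y665H spleen for each of these genes. Csf3r, at −0.88, and Cxcr2, at −0.65, stayed short of the fold minimum. The granule genes Mpo, at −0.71, and Ltf, at −0.72, remained uncalled. Other spleens mattered less: edgeR called 3 members without Y665F replicate 3 (Stfa2l1, Clec4e and Trem1), and 2 without Y665H replicate 4 (Stfa2l1 and Trem1), Y665H replicate 5 (Stfa2l1 and Clec4d), Y665F replicate 1 (Stfa2l1 and Trem1) or Y665F replicate 2 (Stfa2l1 and Clec4e). Some signs rested on 1 spleen too, since Ngp was at 0.02 and Camp at 0.06 without Y665H replicate 3, and Elane at 0.13 and Ngp at 0.03 without Y665H replicate 5.

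Other genes of granulocytes were read beside the members. Of 23 tested from a list of 24 (BC100530, a stefin-like gene, was not tested), edgeR called 3 higher in Y665H against WT, namely Chil3, a chitinase-like protein, at 1.66, Wfdc21 at 1.47 and Cxcr1, a chemokine receptor, at 1.38. It called 1 lower in Y665F against WT, the formyl peptide receptor Fpr1 at −1.33, and 3 lower in Y665F against Y665H, namely Slpi, a protease inhibitor, at −1.69, Cxcr1 at −1.51 and Fpr1 at −1.35. These counts became, without Y665H replicate 1, 6 higher, 2 higher with 1 lower, and 4 lower. Granulopoiesis factors and cytokine receptors, 23 genes with Stat5b among them, had 0 calls by edgeR and by DESeq2 in the 3 comparisons, with 10 at an unadjusted p under 0.05 in Y665F against Y665H, 11 in Y665F against WT and 6 in Y665H against WT. Gfi1, a repressor needed for neutrophil formation, differed by 0.53 from WT (edgeR adjusted p = 0.0178) and by 0.51 from Y665H (edgeR adjusted p = 0.0066) in Y665F, and Cebpa, which starts the granulocyte programme, by 0.33 from WT in Y665H (edgeR adjusted p = 0.0366). Chemokines and adhesion molecules of neutrophils (14 genes) and the NADPH oxidase (6 genes) also had 0 calls by edgeR and by DESeq2 in each comparison, and edgeR gave 0 for these and for the factors without Y665H replicate 1 too. Unadjusted p under 0.05 numbered 6, 5 and 4 for the former and 2, 2 and 0 for the latter, in the same order of comparisons.

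Markers of red cell precursors and of cycling cells were higher in Y665H replicates 2 to 5, as were many members, but not in Y665F. Erythroid markers, of which 12 of 15 were tested (Hba-a1, Hbb-bt and Epb42 were not), summed to 1600, 939, 2170 and 1190 CPM in WT, to 1080, 6050, 6850, 4830 and 6390 CPM in Y665H, and to 601, 1140 and 2230 CPM as lowest, median and highest in Y665F. Slc4a1, the red cell anion exchanger, was the most abundant over all spleens, and 1 to 4 genes of the list were at 0 in a spleen. edgeR called 9 of 12 higher in Y665H against WT and 9 lower in Y665F against Y665H, and 0 in Y665F against WT, where 1 had an unadjusted p under 0.05 and DESeq2 called 0. The largest differences were those of Hba-a2, an alpha globin, at 3.62, Slc4a1 at 2.41, the erythropoietin receptor Epor at 2.15 and Hemgn, a nuclear protein of red cell precursors, at 2.13, in Y665H against WT. Cell cycle genes, 10 of 10 tested with none at 0 and Mki67 the most abundant, summed to 2710, 1430, 2590 and 1350 CPM in WT, to 2030, 8000, 7150, 5210 and 7910 CPM in Y665H, and to 1250, 2170 and 3310 CPM as lowest, median and highest in Y665F. edgeR called 10 higher in Y665H against WT, 9 lower in Y665F against Y665H and 0 in Y665F against WT, with 0 at an unadjusted p under 0.05 and 0 by DESeq2. In Y665H against WT, Mki67 differed by 1.72, Rrm2 (a subunit of ribonucleotide reductase) by 1.60, the mitotic kinase Plk1 by 1.59 and the kinase Cdk1 by 1.5. The erythroid calls numbered 10, 11 and 0 and the cell cycle calls 10, 9 and 0 with Y665H replicate 1 left out (Y665H against WT, Y665F against Y665H, Y665F against WT). In both lists Y665H replicate 1 again lay with the WT spleens, and Y665F overlapped WT, unlike Mpo, Ngp and Ltf in Y665F. The part of these cells in the members' differences was not tested.

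Markers of other cells were read in the same spleens. T cell markers, 9 of 12 tested (Trac, Trbc1 and Trbc2 were not) with Cd8a the most abundant and none at 0, summed to 644, 716, 636 and 727 CPM in WT, to 604, 428, 424, 471 and 416 CPM in Y665H, and to 819, 1020 and 1080 CPM as lowest, median and highest in Y665F, and 6 were called higher in Y665F against Y665H, led by the T cell receptor and co-receptor chains Cd8b1 at 1.75, Cd3e at 1.44, Cd8a at 1.39 and Cd3d at 1.11. There were 7 with Y665H replicate 1 left out, and 1 was called lower in Y665H against WT. NK cell markers had 4 of 7 called lower in Y665H against WT, namely granzyme A (Gzma) at −1.64 and the receptors Klrb1c at −1.34, Klre1 at −1.28 and Ncr1 at −1.10, and 3 higher in Y665F against Y665H, or 4 and 2 without Y665H replicate 1. Basophil and mast cell markers had 4 of 10 called higher in Y665F against Y665H (the proteases Cma1 at 1.11, Mcpt8 at 1.06 and Prss34 at 1.04 and the receptor Cd200r3 at 1.04), which became 0 without Y665H replicate 1, 2 against WT (Prss34 at 2.37 and Mcpt8 at 1.68, both granule proteases of basophils) and 1 in Y665H against WT (Prss34 at 1.33), the latter 2 counts being the same without it. Monocyte and macrophage markers had 1 of 14 called, Vcan at 1.13 in Y665H against WT, and eosinophil markers 1 of 9, the receptor Ccr3 at −1.26 in Y665F against WT. The monocyte and macrophage calls numbered 2 with that spleen left out, both in Y665H against WT, and 1 eosinophil marker was called lower in Y665F against Y665H as well as 1 against WT. B cell (9), dendritic cell (7), stem and progenitor (9) and sex-linked (5) genes had 0 calls in each spleen comparison by edgeR and by DESeq2, and by edgeR without Y665H replicate 1. In Y665F against Y665H, Y665F against WT and Y665H against WT, their unadjusted p under 0.05 numbered 1, 3 and 4 for B cell, 2, 5 and 6 for dendritic cell, 5, 4 and 2 for stem and progenitor, and 2, 1 and 2 for sex-linked genes. Where these lists had 0 calls by edgeR, DESeq2 also called 0. Unadjusted p under 0.05 numbered 8 and 9 for T cell markers (Y665F and Y665H against WT), 3 for NK cell markers (Y665F against WT), 11 and 4 for monocyte and macrophage markers (Y665F against Y665H and against WT), and 1 and 1 for eosinophil markers (Y665F against Y665H, Y665H against WT). How far a larger share of T cells or of red cell precursors shifts the CPM of the members was not tested.

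**Figure D4:**
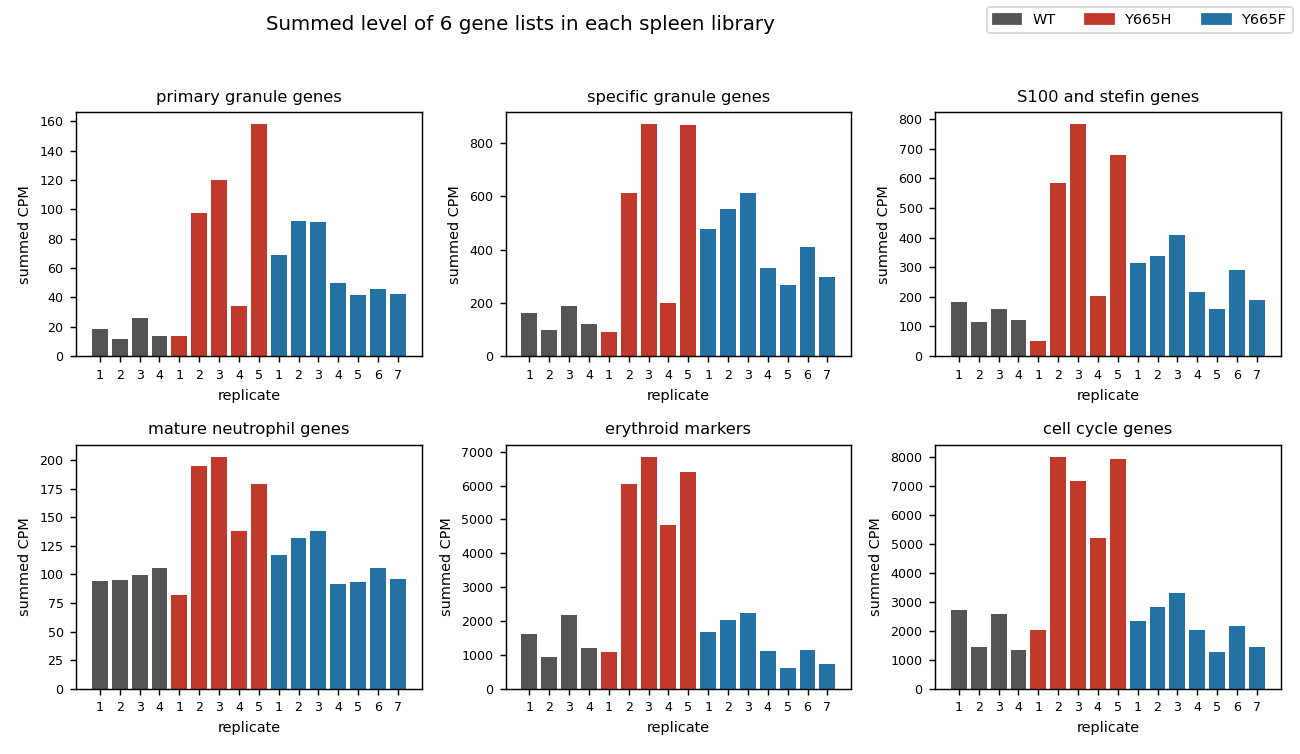
Summed CPM of the members by role, of the erythroid markers and of the cell cycle genes in each of the 16 spleens. Y665H replicates 2 to 5 hold the highest erythroid and cell cycle sums, while Y665H replicate 4 is much lower in the granule genes.

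In isolated T cells the members were few in reads and their source, in the T cells or in cells isolated with them, was not tested. With interleukins, S100a8 stood at 3.83, 1.4, 1.69 and 2.36 CPM in WT, at 8.57, 14.6, 24.2 and 11 CPM in Y665H, and at 21, 22.1, 88.1 and 19.8 CPM in Y665F. S100a9 stood at 5.65, 1.71, 2.64 and 4.53 CPM, at 6.28, 22.4, 29.1 and 12.4 CPM, and at 34.8, 30.8, 93.6 and 27.3 CPM in the same groups. In both genes all Y665H and all Y665F libraries lay above all WT libraries, and Y665F replicate 3 was the highest by far. Ngp measured 1.83, 1.81, 2.06 and 3.21 CPM in WT, 3.71, 6.8, 9.8 and 4.93 CPM in Y665H, and 7.57, 11.1, 72.9 and 12.7 CPM in Y665F, again with Y665F replicate 3 apart. Mmp9 differed in pattern, with 1.5, 0.602, 0.865 and 0.262 CPM in WT, 0.286, 0.486, 0.904 and 0.365 CPM in Y665H, and 4.55, 6.09, 13.1 and 8.83 CPM in Y665F. There the Y665H libraries overlapped WT, and the 4 Y665F libraries lay above both. The primary genes were scarce, Mpo reaching at most 4.38 CPM and Prtn3 0.305 CPM in cells with interleukins.

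Y665F replicate 3 of the T cells also stood apart in other markers and in depth, with 2.85 M reads on genes against 13.5 to 21.4 M in the other 3 Y665F libraries with interleukins, and had 58.2% of reads in no feature. Its T cell markers summed to 1090 CPM, against 2680, 3220, 3520 and 3020 CPM in WT, 2610, 2650, 2840 and 2660 CPM in Y665H, and 2920, 2590 and 1710 CPM in the other Y665F libraries. Its B cell markers, led by Ms4a1, summed to 763 CPM, against 119, 18.2, 63 and 26.8 CPM in WT, 30, 46.7, 43.9 and 36.7 CPM in Y665H, and 23, 41.8 and 213 CPM in the other Y665F libraries. Erythroid markers, led by Alas2, reached 1120 CPM there, with 98.1 CPM in Y665F replicate 4 and 13.8 to 45 CPM in the other 10 libraries with interleukins. Monocyte and macrophage markers, led by Ccr2, summed to 191 CPM in it, within the 83.1 to 335 CPM of the others. Cell cycle genes, led by Mki67, summed to 200, 243, 235 and 251 CPM in WT, 61.7, 182, 200 and 108 CPM in Y665H, and 526, 394, 655 and 492 CPM in Y665F with interleukins, 1 gene being at 0 in Y665H replicate 1 and none elsewhere. edgeR called 2 of 10 higher in Y665F than in WT and 8 of 10 higher than in Y665H. Against WT it also called 1 of 9 B cell, 2 of 10 erythroid, 1 of 6 NK cell and 1 of 14 monocyte and macrophage markers higher and 2 of 9 T cell markers lower in Y665F, and against Y665H 5, 3, 5 and 2 higher and 1 lower. Of 24 other granulocyte genes, 3 were called higher than in WT and 2 than in Y665H. Eosinophil markers had 1 of 9 higher against WT and 0 against Y665H. Against Y665H 1 of 10 basophil and mast cell and 1 of 7 dendritic cell markers were higher, and against WT 0 of either. Granulopoiesis factors and receptors had 2 of 23 higher against WT, and 5 higher with 1 lower against Y665H. Chemokines and adhesion molecules had 1 of 14 higher in both, and 1 lower against Y665H. The part of these genes and of cells that came along with the T cells in the members' levels was not tested.

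**Figure D5:**
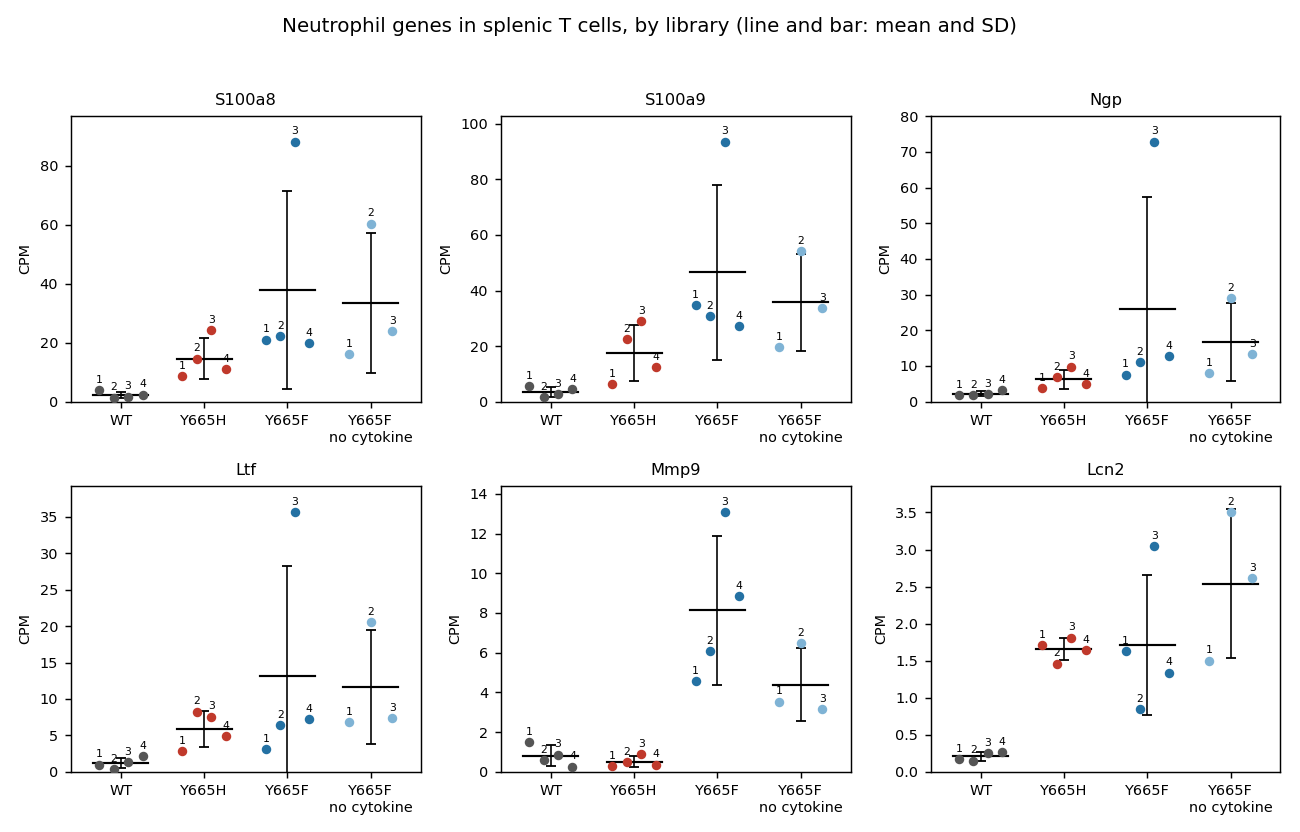
CPM of 6 members in splenic T cells, with a point for each library and its replicate number, and lines and bars for the mean and SD of each group on axes that start at 0. Y665F replicate 3 with interleukins is the highest library for S100a8, S100a9, Ngp and Ltf, and the Y665H libraries overlap WT for Mmp9.

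Against WT T cells, edgeR called 9 of 34 members higher in Y665F and 0 lower, beside 1.53% of all 22313 genes tested in either direction. Of the members, 22 had an unadjusted p under 0.05, DESeq2 called 16, and the median was 1.9, against 0.07 over all genes. S100a8 differed by 4.02 (SE 0.53, edgeR adjusted p = 0.00103, 4 of 4 libraries above all WT), S100a9 by 3.68 (SE 0.48, edgeR adjusted p = 0.00103, 4 of 4), Ngp by 3.49 (SE 0.58, edgeR adjusted p = 0.00374, 4 of 4) and Mmp9 by 3.31 (SE 0.48, edgeR adjusted p = 0.0017, 4 of 4). Ltf at 3.33, Itgb2l at 3.19, Retnlg at 2.91, Lcn2 at 2.88 and Cd177 at 2.73 made up the 9, each with 4 of 4 libraries above all WT. Without Y665F replicate 1 edgeR called 11, with Mpo and Trem1, and without WT replicate 1 it called 10, with Cxcr2. Without Y665F replicate 3 it called 7, Cd177 and Retnlg being lost. Without WT replicate 2 or Y665F replicate 4 it called 6, losing Itgb2l as well, while leaving out WT replicate 3 lost Itgb2l and Retnlg, and leaving out WT replicate 4 lost Retnlg. S100a8, S100a9, Ngp, Ltf, Mmp9 and Lcn2 kept their calls without any 1 of the 8 libraries.

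In Y665H T cells edgeR called 2 of 34 members higher than in WT, beside 0.0717% of all genes. They were Lcn2 at 2.95 (SE 0.55, edgeR adjusted p = 0.0363, 4 of 4 libraries above all WT) and S100a8 at 2.71 (SE 0.51, edgeR adjusted p = 0.0363, 4 of 4). Lcn2 stood at 0.166, 0.151, 0.247 and 0.262 CPM in WT and at 1.71, 1.46, 1.81 and 1.64 CPM in Y665H. Leaving out WT replicate 2 or 3, or Y665H replicate 2, 3 or 4, left 0 members, leaving out WT replicate 4 left S100a8 alone, and leaving out WT replicate 1 exchanged Lcn2 for S100a9. Without Y665H replicate 1 there were 3, namely S100a8, S100a9 and Mmp8. DESeq2 called 3 with all libraries. Of the Y665H libraries, replicates 1, 2 and 4 were shallow, the 4 having 3.31, 2.02, 15.9 and 5.33 M reads on genes.

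Between the mutants, edgeR called 3 of 34 members higher in Y665F T cells than in Y665H T cells, beside 4.78% of all genes, and DESeq2 called 4. Mmp9 was at 3.71 (SE 0.55, edgeR adjusted p = 0.000242, 4 of 4 libraries above all Y665H), Mpo at 2.12 (SE 0.62, edgeR adjusted p = 0.0412, 4 of 4) and Ngp at 1.94 (SE 0.56, edgeR adjusted p = 0.0408, 3 of 4). Without Y665H replicate 1, 2 or 4 only Mmp9 kept its call. Mpo also lost it without Y665F replicate 2 or 4, and Ngp without Y665F replicate 3. Leaving out Y665H replicate 3 gave 4 members, Mmp9, Ngp, Retnlg and S100a9. Y665F T cells without interleukins held S100a8 at 16.1, 60.3 and 23.9 CPM and Mmp9 at 3.53, 6.49 and 3.15 CPM, which overlaps the cells with interleukins. Between cells with and without interleukins, edgeR called 0 of 34 members, beside 2.97% of all genes. Of the members, 3 had an unadjusted p under 0.05 and DESeq2 called 0, and the median was −0.13 over the members and over all genes. These groups may differ in time in culture as well, since the study describes T cells without interleukins as sequenced right after isolation.

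CD4+ cells sorted before and after transduction held little of most members, with Stfa3, Pglyrp1 and Hdc as exceptions. In null cells the members with more than 3 CPM in any library were Stfa3, at 18.8 to 46 CPM, Pglyrp1, at 8.59 to 21.6 CPM, and Hdc, at 2.21 to 5.5 CPM. In WT cells Stfa3 stood at 16.2 to 59.7 CPM and Pglyrp1 at 9.83 to 26 CPM, with Hdc at 1.33 to 2.85 CPM. Stfa3 was thus far more abundant in these T cells than in spleens, where it had at most 9 reads, and Pglyrp1 was in the range of the spleens (6.3 to 13.4 CPM) or above it. S100a9 stood out among null cells with N642H, with 2, 106 and 0 reads in the 3 libraries and 0, 0 and 0 with the empty vector. Replicate 2 of N642H held S100a9 at 2.28 CPM, S100a8 at 1.95 CPM with 91 reads and Ngp at 1.87 CPM with 87 reads, and the other 14 null libraries had at most 1 read of S100a8, 3 of S100a9 and 8 of Ngp. That library also held the most reads of Ltf (27), Lcn2 (21), Cxcr2 (19), Elane (11) and Prtn3 (11) among null cells. It had 0 reads of Mmp8 and Olfm4.

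Against the empty vector in null cells, edgeR called 1 of 32 members with N642H, S100a9 (edgeR adjusted p = 0.0302, with reads in 2 of 3 libraries), beside 2.88% of all genes. DESeq2 called 0. Without N642H replicate 2, or without any 1 of the 3 libraries with the empty vector, edgeR called 0. Without N642H replicate 1 it called 2 (S100a9 and Ngp), and without N642H replicate 3 it called 3 (S100a9, S100a8 and Ngp). With STAT5B, Y665F and Y665H edgeR called 0 of 32 members each, beside 0.477%, 2.37% and 0.0249% of all genes. An unadjusted p under 0.05 was found for 0, 2 and 4 members, and DESeq2 called 0 in each.

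In WT CD4+ cells edgeR called 0 of 31 members with STAT5B, N642H, Y665F and Y665H, beside 0.00975%, 0.985%, 0.707% and 0.00488% of all genes. An unadjusted p under 0.05 was found for 1, 4, 2 and 0 members, and DESeq2 called 0, 1, 0 and 0, the 1 being Cxcr2 with N642H. Cxcr2 had 18, 11 and 9 reads there and 1, 2 and 1 with the empty vector. Pglyrp1 stood at 20.2, 26 and 14.5 CPM with the empty vector and at 10.5, 10.7 and 10.7 CPM with Y665F, where the 3 libraries lay below all 3 controls at a log2 difference of −0.93 (edgeR adjusted p = 0.051). Without replicate 3 of the empty vector edgeR called Pglyrp1, as the 1 member in that comparison.

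Several limits bear on these values. The labels give no zygosity or batch for the spleens. Reads counted as not aligned made up 0% in each WT spleen, 0.103 to 0.118% in Y665H and 0.119 to 0.193% in Y665F. This share thus divides by genotype, and whether the genotypes were processed apart was not tested. Y665H replicate 1 lay with the WT spleens for Mpo, Elane, Ctsg and Camp. It lay below them for Ngp, Ltf, S100a8 and S100a9, which widened the Y665H group. With 4 WT spleens, leaving out WT replicate 1 or 2 removed every call of a member in Y665F, although the log2 difference of Mpo stayed at 1.83 or 1.72 and all 7 Y665F spleens lay above all WT spleens. Ly6g could not be read, and Stfa2 and Stfa2l1 share sequence with each other. Csf3r shared 10.5% of its 50-base stretches with other loci. Genes of the opposite strand overlapped 15% of the exon sequence of Mpo and 9.18% of that of Prtn3. What this does to their counts was not tested. Protein, cell numbers and maturation stages were not measured in these data, and the levels are relative to all other RNA in each library. The study itself counted splenic neutrophils by flow cytometry and reports no significant difference of either mutant from WT. Whether those were the same mice is not stated.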

How the data were processed

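The counts per gene deposited by the authors were used as they stood. Their notes name Trimmomatic 0.36, STAR (no version in the notes), HTSeq 0.9.1, FastQC 0.11.9, SAMtools 1.9 and Picard 2.9.2 on mm10, and not the strand setting of HTSeq. Depth, given with the results, was lowest in T cells, where a gene at 1 CPM had as few as 2 reads. Reads in no feature made up 54.9 to 63.5% of the HTSeq total in spleens, 34.4 to 59.4% in T cells, 9.84 to 15.1% in null and 8.67 to 14.4% in WT CD4+ cells.

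Spleens, T cells, null CD4+ and WT CD4+ cells were fitted separately in R 4.3.3 with edgeR 4.0.16 (TMM, genes with at least 10 reads, quasi-likelihood, Benjamini-Hochberg over all genes of a fit) and with DESeq2 1.42.0 as an alternative. All members were named, and values by library were given for the 3 genes of each role with the highest mean CPM over the spleens. Genes of other lists (other granulocyte genes, granulopoiesis factors and receptors, chemokines and adhesion, NADPH oxidase, markers of other cell classes, cell cycle, sex) were named where called in spleens, up to 4 a list by size. Results of 1 marker list are not given. The members and the lists were chosen with earlier results of these data known. Replicate numbers were tested for pairing, taking them as paired where every same-number correlation passed 0.1, which held for STAT5B against empty in WT CD4+ cells alone, at 0.39 to 0.51 over 3 pairs, and 0 members called either way. Other alternatives were RLE size factors, filterByExpr, no filter, only the groups compared, a replicate block, no fold minimum and each library left out.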

Additional observations from a re-analysis of the deposited data

Results flagged for a closer look

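Of 75 pairs of a group and a value examined, 6 held a library far from the rest of its group by Dixon's test, all in T cells with interleukins and none in spleens. Y665F replicate 3 was the highest of its group for Ngp (72.9 CPM), Ltf (35.7 CPM), Camp (2.74 CPM), S100a9 (93.6 CPM) and S100a8 (88.1 CPM). Y665H replicate 3 was the highest for Ctsg (0.278 CPM), where the other 3 libraries were at 0. That value is 4 reads in a library of 15.9 M reads on genes, against 2.02 to 5.33 M in the others, so it says little. Y665F replicate 3 had 2.85 M reads on genes and 58.2% of reads in no feature. Chance alone gives about 1 in 20 groups where values are independent and normally distributed. The flagged genes of Y665F replicate 3 come from 1 library and cannot be taken as independent, so that rate is no yardstick here. The same Y665F library also had the highest B cell and erythroid marker sums. The cause was not tested.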

How the results depend on the processing

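Most entries kept their sign and their call, or lack of a call, under the other settings. Such entries are counted as the same, those that lost a call as weaker and those that gained a call as stronger. Genes uncalled both times thus count as the same, and sizes of differences were not compared. Of the log2 differences of the 12 genes described by library, 195 were the same, 17 weaker and 4 reversed over the other tool, scaling, filters, choice of groups and replicate block, and 333 were the same, 42 weaker, 3 stronger and 6 reversed over the spleens left out. The 4 came with the replicate block, where Y665F against Y665H changed sign for Mpo (0.01), Elane (0.16), Ngp (0.07) and Camp (0.07), all uncalled, and Stfa2l1 lost its call at −1.40. With 1 spleen left out, Ngp (0.02) and Camp (0.06) without Y665H replicate 3, Elane (0.13) and Ngp (0.03) without Y665H replicate 5, and Mcemp1 of Y665F against WT (0.05 without WT replicate 4, 0.01 without Y665F replicate 2) changed sign. The ranges over the spleens left out began at −0.59 for Elane, −0.51 for Ngp and −0.58 for Camp, each without Y665H replicate 1, and at −0.09 for Mcemp1, without WT replicate 2.

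Members called moved more. In Y665F against Y665H, 1 became 0 with a replicate block and 6 with no fold minimum, and ranged from 1 to 8 over the spleens left out. In Y665F against WT, 8 became 14 with DESeq2, 1 with a replicate block and 17 with only the groups compared, and ranged from 0 to 10 over the WT and Y665F spleens left out. Without Y665H replicate 1, which is in the fit but not in this comparison, 17 were called. In Y665H against WT, 21 became 7 with a replicate block and 10 with only the groups compared, and ranged from 11 to 25. All genes called became 653 and 5015 (Y665F against Y665H) and 103 and 2373 (Y665F against WT) with a replicate block and with no fold minimum, and 3837 (Y665H against WT) with no fold minimum. With 1 spleen left out they ranged from 813 to 1311, from 137 to 351 and from 617 to 1095.

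In T cells, Y665F against WT became 16 with DESeq2 and ranged from 6 to 11. Y665H against WT became 0 with a replicate block and 1 with RLE size factors, with filterByExpr or with only the groups compared, and ranged from 0 to 3. Y665F against Y665H became 1 with a replicate block and ranged from 1 to 4. In null CD4+ cells N642H became 0 with DESeq2 and 2 with a replicate block, and ranged from 0 to 3. In WT CD4+ cells N642H became 1 with DESeq2 and 2 with a replicate block, and Y665F became 1 with a replicate block and ranged from 0 to 1.

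The replicate block used the replicate numbers, which did not pair the spleens: correlations of same-number pairs ran from −0.19 to 0.10 in Y665F against Y665H, from −0.11 to 0.06 in Y665F against WT and from −0.17 to 0.20 in Y665H against WT. In null CD4+ cells each library correlated best with its own number in N642H (0.08 to 0.29), Y665F (0.10 to 0.22) and Y665H (0.10 to 0.45) against empty, a hint from the data and not the design. The primary minus mature difference, over other scalings and lists, ran from 1.22 to 1.68 (Y665F against WT), from 1.03 to 1.28 (Y665H against WT) and from 0.11 to 0.41 (Y665F against Y665H). The cause was not tested.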
